A study of Physcomitrium patens with 21 samples.

Results

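The step from 6 h to 12 h after removal of the shoot tip was examined in stems of the moss Physcomitrium patens, by comparing the 3 libraries of 12 h with the 3 libraries of 6 h. These are 6 of the 21 libraries of the study, and they were chosen by their labels alone. All 32926 gene models of the count tables entered the comparison, and 20269 of them had enough counted read pairs to be tested. The study as a whole addressed which genes respond to auxin and to decapitation in moss gametophores, the upright leafy shoots, in 7 groups of 3 biological replicates.

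All groups were wild type of the Gransden strain, and every library is labelled as gametophore stem. For the decapitation series, shoots of 4-week-old colonies had their tips cut off, and stems were taken at 0, 2, 6, 12 or 24 h, with 0 h as the study's control. Each replicate pooled the RNA of 5 to 10 gametophores, so no value belongs to a single shoot. The 24 h label also carries a biotic stress tag that the labels of the other times lack. A separate auxin experiment held gametophores exposed for 30 min to 10 µM indole-3-acetic acid (IAA) or to solvent (mock), with no colony age given. All plants grew at 23 °C under 16 h of light and 8 h of dark, and polyadenylated RNA from 4 µg of total RNA was made into stranded paired-end libraries. No undecapitated stems of 6 h or 12 h were analysed here, so hours since decapitation and hour of the day cannot be told apart.

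A gametophore grows from an apical cell at its tip, and the tip is a source of auxin. Auxin acts by removing repressor proteins from transcription factors, so that many genes respond to added auxin within minutes to hours. In mosses, as in flowering plants, an intact tip holds back side branches, and its removal allows epidermal cells of the stem to form branch initials. IAA is the main natural auxin.

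The identifiers of the gene models are not paired with names in the files, and 0 of 32926 matched the RefSeq gene table of the species. Genes are therefore given by identifier only, with no function, and the stem label could not be checked against marker genes. In bulk RNA, fewer cells of a type and less RNA per cell cannot be told apart. The 6 libraries held 19711928 to 24460881 counted read pairs, within the range of 18995348 to 32039288 over all libraries. Replicate 1 of 6 h stood apart from replicates 2 and 3 in the genes that fell at least 2-fold. It was also often the lowest of 6 h in genes that rose at least 2-fold. This touches the results below, although replicate 1 of 6 h was one of the deeper libraries, with 24048792 pairs.

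From 6 h to 12 h, many genes changed in each direction, and the large changes were mainly decreases. In edgeR's quasi-likelihood test, 7701 of the 20269 genes (38.0%) were called at a Benjamini-Hochberg adjusted p below 0.05. Of these, 3408 (16.8% of the genes tested) were higher at 12 h and 4293 (21.2%) were lower. Fitted on the 6 libraries of both times alone, 3341 were higher and 3233 lower, so the excess of falling genes among all calls turned with the fit. Most changes were small, with a median log2 change of 0.41 among the genes called higher and -0.33 among those called lower, against -0.03 over all genes tested. At least 2-fold changes were found in 251 genes that rose (1.24%) and 482 that fell (2.38%). At 4-fold or more, 19 genes rose (0.0937%) and 169 fell (0.834%).

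The libraries of both times did not overlap for many genes. All 3 libraries of 12 h lay above all 3 of 6 h in 4241 genes (20.9%) and below them in 5709 genes (28.2%). Among the genes changed at least 2-fold this held for 238 of the 251 that rose and 464 of the 482 that fell, as the choice by fold favours. The range of log2 changes over all genes tested ran from -8.91 to 4.35. In genes with few or no pairs at 1 of both times, the size of such a value is poorly determined. Among genes called without overlap that averaged 5 CPM or more, the extremes were -5.57 and 4.12.

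**Figure D1:**
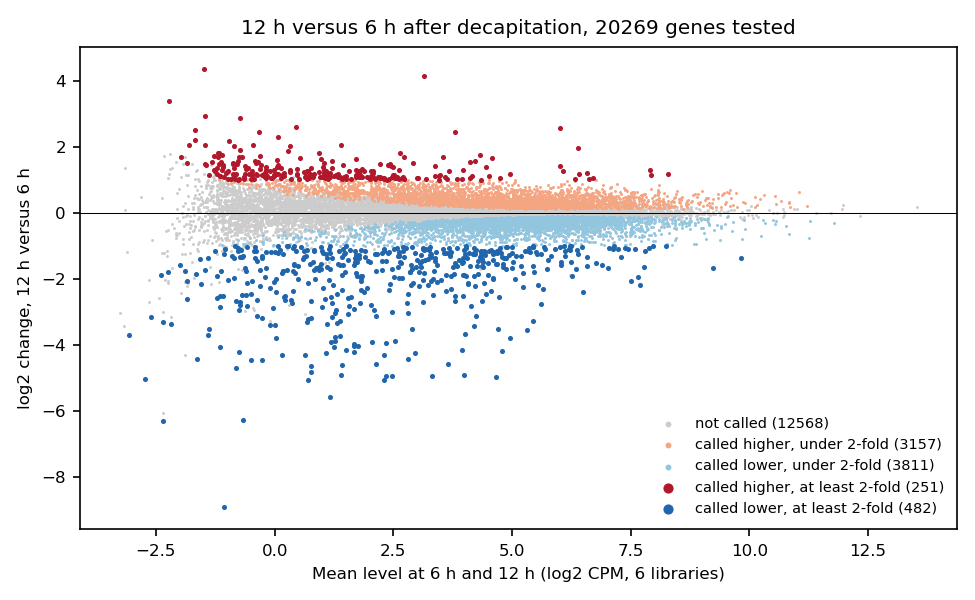
Each point is 1 of the 20269 genes tested, with its mean level at 6 h and 12 h on the x axis (log2 CPM, 6 libraries) and its log2 change from 6 h to 12 h on the y axis. The 482 genes called at least 2-fold lower reach -8.91, and -5.57 among those without overlap that averaged 5 CPM or more. They spread over the lower and middle levels, whereas most of the 251 called at least 2-fold higher lie at the left, below the level of most genes.

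Genes with large changes were seldom the ones with most read pairs. The mean level over the 6 libraries reached 5 CPM (read pairs of a gene scaled to a common library size) in 65 of the 251 genes that rose at least 2-fold (25.9%) and in 281 of the 482 that fell (58.3%), against 78.4% of all genes tested. When all genes were split into 4 equal classes by level, the share called climbed from 24.5% in the lowest class through 35.7% and 42.1% to 49.7% in the highest. The classes differ in the number of pairs per gene, and so in how small a change the test can call. Genes that rose at least 2-fold numbered 207 in the lowest class and 28, 4 and 12 in the next 3. Those that fell at least 2-fold numbered 259, 119, 56 and 48.

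The gene models that fell most were also shorter. Median model length was 2247 bases over all genes tested, 1973 for the genes that rose at least 2-fold, 1861 for those that fell at least 2-fold and 1560 for those that fell at least 4-fold. These lengths are those of the deposited tables.

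Seen over the whole series, the genes that fell most were at their lowest at 12 h. The summed level of the 482 genes was 16431, 20360 and 22206 CPM in the 6 h libraries and 6852, 6733 and 6231 CPM in those of 12 h. Their share of all pairs on tested genes went from 2.02% ± 0.297 at 6 h to 0.697% ± 0.0345 at 12 h (SD, n = 3 each). The sums were 33814, 24425 and 24061 CPM at 0 h, 23320, 22800 and 26968 at 2 h and 13661, 15972 and 20174 at 24 h. Every library of the other 4 times lay above every library of 12 h. Since the genes were chosen on the 6 h and 12 h libraries, those sums are a description.

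The 169 genes that fell at least 4-fold had the same shape with a wider spread. They summed to 2480, 5641 and 6124 CPM at 6 h and to 849, 635 and 552 CPM at 12 h. At 0 h the sums were 15786, 8725 and 8829 CPM, at 2 h 6622, 6110 and 9214, and at 24 h 3401, 3987 and 7238. Replicates thus lay apart at every time, and every library of 12 h was below every library of the other times.

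**Figure D2:**
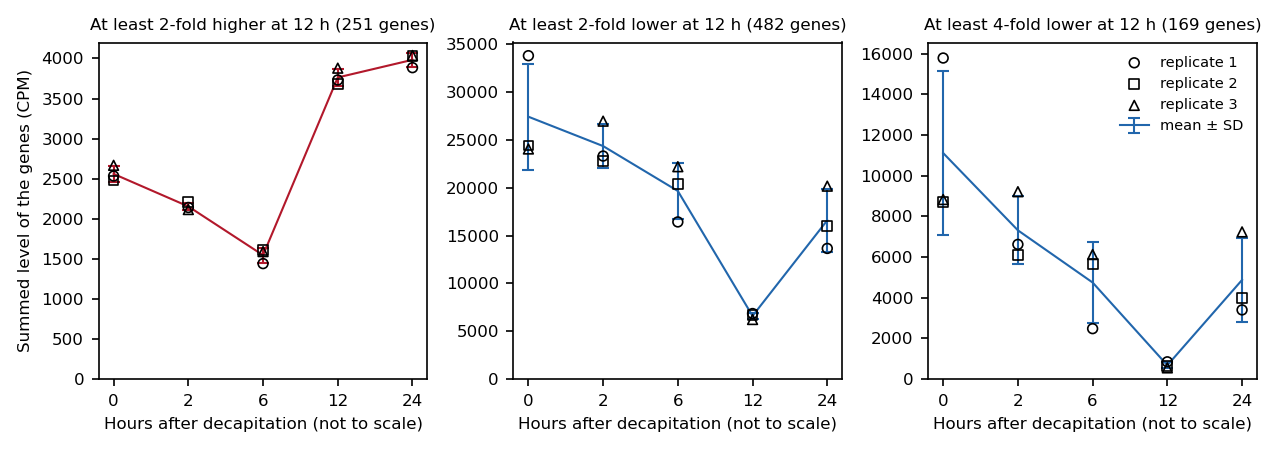
Summed level (CPM, linear axes from 0) of the genes called 2-fold or more higher, 2-fold or more lower, and 4-fold or more lower in the step to 12 h, by hours after decapitation; symbols are libraries, and lines with bars are means ± SD (n = 3). The genes that fell are lowest at 12 h in all 3 replicates, and replicate 1 of 6 h lies below replicates 2 and 3 (2480 against 5641 and 6124 CPM in the right panel).

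Replicate 1 was the lowest of the 6 h libraries in 310 of the 482 genes (64.3%) and in 143 of the 169 (84.6%), against 34.5% of all genes tested. It was also the lowest in 132 of the 251 genes that rose at least 2-fold (52.6%) and in 12 of the 19 that rose at least 4-fold (63.2%). Among all 4293 genes called lower, it was the lowest of 6 h in 30.8%. The median SD of log2 CPM within 6 h was 0.861 for the 169 genes and 0.0886 for all genes, and within 12 h it was 0.445 and 0.0923. Without that library, 511 genes fell at least 2-fold and 199 at least 4-fold, while 195 rose at least 2-fold. What set replicate 1 apart was not tested.

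The 251 genes that rose at least 2-fold had their low point at 6 h. They summed to 1441, 1606 and 1591 CPM at 6 h and to 3732, 3679 and 3879 CPM at 12 h. The sums were 2533.5, 2479 and 2667 CPM at 0 h, 2141, 2206 and 2115 at 2 h and 3885, 4027 and 4037 at 24 h. The 12 h libraries were therefore above those of 0 h and 2 h too, and close to those of 24 h. Their share of pairs on tested genes rose from 0.159% ± 0.00899 to 0.397% ± 0.0120 (SD, n = 3 each). For all 3408 genes called higher that share went from 18.0% to 23.9%, and for all 4293 called lower from 30.9% to 23.9%. As all these genes were chosen on the 6 h and 12 h libraries, these shifts follow from the choice. The low point of the 251 genes at 6 h does so in part, and is a description.

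Among genes that reached a mean of 5 CPM, the largest rise was that of Pp3c21_16210V3.1. Its level was 1.17, 2.79 and 2.47 CPM at 6 h and 40.8, 33.4 and 37.4 CPM at 12 h. The libraries of both times were far apart, with a 17.4-fold rise (log2 change 4.12, SE 0.237; edgeR adjusted p = 2.19e-08). The high level was brief. At 2 h the gene stood at 0.434 CPM ± 0.119, and by 24 h it had come down to 3.89 CPM ± 0.869 (SD, n = 3 each), a log2 change from 12 h of -3.27 (SE 0.223; edgeR adjusted p = 1.02e-08).

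Pp3c18_7850V3.1 rose 5.93-fold. It was at 25.3, 27.8 and 26.1 CPM at 6 h and at 169.8, 157 and 142 CPM at 12 h. Each 12 h library was above every other library of the series, since the 0 h values were 51.3, 47.8 and 51.4 CPM and those of 24 h were 58.8, 54.3 and 53.9 CPM. The log2 change from 6 h was 2.57 (SE 0.0735; edgeR adjusted p = 9.44e-12).

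The largest falls among genes that averaged 5 CPM or more went to near 0 in every 12 h library. Pp3c16_12890V3.1 was at 4.76, 22.5 and 20.5 CPM at 6 h and at 0.491, 0.145 and 0.318 CPM at 12 h. The groups did not overlap, but replicate 1 of 6 h was far below its fellows, and the log2 change of -5.57 had an SE of 1.51 (edgeR adjusted p = 0.00898). This gene was also uneven at 0 h, with 124, 28.9 and 11.8 CPM, and at 24 h, with 12.3, 7.44 and 58.4 CPM. Pp3c2_6110V3.1 was at 10.8, 43.8 and 34.4 CPM at 6 h and at 0.818, 0.677 and 1.14 CPM at 12 h. It was 33.4-fold lower at 12 h (log2 change -5.06, SE 0.693; edgeR adjusted p = 5.14e-05), and replicate 1 of 6 h was again the lowest. By 24 h it was back at 14.9, 23.0 and 42.2 CPM, within the range of 6 h.

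In 2 genes, picked after their values were seen, no read pair was counted at 12 h although at least 30 pairs were counted over the 6 h libraries. No gene showed the opposite pattern. Pp3c24_9770V3.1 had 27, 88 and 81 pairs at 6 h and none at 12 h, which makes it at least 59.3-fold lower when 3 pairs over the 12 h libraries are taken as the floor. It also had 56, 38 and 74 pairs at 2 h. Its counts at 0 h, of 26, 5 and 0 pairs, and at 24 h, of 4, 2 and 77, differed widely between replicates. Pp3c18_7460V3.1 had 1, 16 and 15 pairs at 6 h, at least 9.69-fold above that floor, after 123, 55 and 42 pairs at 0 h. At 24 h it was detected again, with 1, 12 and 18 pairs.

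Among genes changed at least 2-fold, those with the most read pairs changed by 2- to 4-fold. CPM are not divided by model length, so these genes have most pairs but need not have most transcripts. Pp3c16_11740V3.1 rose from 193, 215 and 216 CPM to 432, 504 and 481 CPM, a log2 change of 1.18 (SE 0.0845; edgeR adjusted p = 1.31e-07). All 24 h libraries were higher still, at 692, 796 and 814 CPM. Pp3c5_1480V3.1 rose from 128, 189 and 148 CPM to 424, 347 and 359 CPM and stayed at 351, 315 and 277 CPM at 24 h. Its log2 change from 6 h to 12 h was 1.28 (SE 0.127; edgeR adjusted p = 2.51e-06), and the change from 12 h to 24 h was not called (-0.26, SE 0.124; edgeR adjusted p = 0.101).

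Pp3c11_16970V3.1 fell from 1342, 1521 and 1518 CPM to 507, 541 and 652 CPM. Its means were 1186 ± 80.4 CPM in the 0 h libraries and 1169 ± 67.6 CPM in the 2 h libraries (SD, n = 3 each), and all 6 h libraries lay above these, with a called rise from 2 h (log2 change 0.32, SE 0.0820; edgeR adjusted p = 0.00926). The fall was 2.58-fold, with a log2 change of -1.37 (SE 0.0835; edgeR adjusted p = 3.12e-08). Pp3c17_13940V3.1 fell 3.18-fold from a high point at 6 h. Its libraries held 119.6, 126 and 129 CPM at 0 h, then 602, 687 and 642 CPM at 2 h and 1055, 1146 and 1042 CPM at 6 h, and stood at 296, 303 and 422 CPM at 12 h. The step from 6 h gave a log2 change of -1.67 (SE 0.133; edgeR adjusted p = 3.37e-07), and at 24 h the libraries were at 131, 149 and 192 CPM.

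Some genes were called in this step with no earlier comparison past an unadjusted p of 0.05, between 0 h and 2 h, 2 h and 6 h, and 0 h and 6 h. A p above that threshold does not show that the earlier levels were equal. Pp3c2_21710V3.1 was at 3.35, 3.20 and 3.71 CPM at 6 h, next to means of 3.49 ± 0.481 CPM in the 0 h libraries and 3.19 ± 0.102 CPM in those of 2 h (SD, n = 3 each). It rose 2.60-fold to 7.97, 8.02 and 10.7 CPM (edgeR adjusted p = 2.08e-06). Pp3c4_26270V3.1 rose 2.07-fold, from 3.95, 4.06 and 5.27 CPM to 9.97, 9.04 and 8.51 CPM (edgeR adjusted p = 2.38e-05), and was back at 4.50 CPM ± 0.143 by 24 h.

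Pp3c3_14410V3.1 and Pp3c13_20000V3.1 fell most among those that averaged 5 CPM or more. Pp3c3_14410V3.1 was not steady before, with 457, 261 and 336 CPM at 0 h and 100.02, 177 and 208 CPM at 2 h. Those groups did not overlap, at a log2 change of -1.12 (SE 0.537) with an unadjusted p of 0.0548 in edgeR. It held 81.8, 255 and 219.8 CPM in the 6 h libraries and 4.09, 0.967 and 12.6 CPM in those of 12 h, a log2 change of -4.97 (SE 0.692; edgeR adjusted p = 5.95e-05). Its 12 h libraries differed among themselves by more than 10-fold, yet all lay below the lowest of 6 h. Pp3c13_20000V3.1 went from 15.9, 23.3 and 45.4 CPM to 0.899, 0.967 and 0.864 CPM, a log2 change of -4.95 (SE 0.714; edgeR adjusted p = 7.99e-05). Here the 12 h libraries were alike and the spread was within 6 h.

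Whether the step from 6 h to 12 h differed from the step from 2 h to 6 h was tested directly. The steps last 6 h and 4 h and share the 6 h libraries, so a gene with a stray value at 6 h would appear to turn there. From 2 h to 6 h, 2591 genes (12.8%) were called higher and 2678 (13.2%) lower, fewer than from 6 h to 12 h. The difference of the steps was called in 5575 genes (27.5%), at a Benjamini-Hochberg adjusted p below 0.05 in edgeR. It was positive in 2540 of them and negative in 3035, and with RLE size factors in 2731 and 2617. The numbers fell to 1727 and 2082 without replicate 1 of 6 h, and to 1856 and 2097 without replicate 3 of 6 h.

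Pp3c4_16610V3.1 turned upwards. At 2 h it held 19.9, 15.3 and 16.7 CPM, at 6 h only 6.17, 6.36 and 6.82 CPM, and at 12 h again 22.2, 24.2 and 16.2 CPM. The 6 h libraries were below all others of this gene, and its 2 steps differed by a log2 value of 3.11 (SE 0.276; edgeR adjusted p = 1.72e-06). Pp3c3_21910V3.1 followed with 56.6, 30.3 and 45.8 CPM at 2 h, 5.00, 8.47 and 5.82 CPM at 6 h and 18.1, 18.4 and 14.5 CPM at 12 h. Its steps differed by 4.20 on the log2 scale (SE 0.505; edgeR adjusted p = 2.84e-05).

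The turns downwards, picked in the same way, were peaks at 6 h. Pp3c26_3430V3.1 held 2.30, 2.44 and 1.84 CPM at 2 h, 7.66, 6.67 and 9.81 CPM at 6 h, and 2.53, 2.32 and 2.18 CPM at 12 h. The 2 h and 12 h libraries overlapped, and the steps differed by a log2 value of -3.65 (SE 0.311; edgeR adjusted p = 1.14e-06). Pp3c10_4690V3.1 had the tightest replicates, with 112, 114 and 114 CPM at 6 h. It had come from 3.92, 3.22 and 3.25 CPM at 0 h and 28.5, 32.1 and 36.7 CPM at 2 h, and went down to 36.2, 39.2 and 38.3 CPM at 12 h and 1.78, 2.24 and 2.89 CPM at 24 h. The difference of its steps was -3.39 on the log2 scale (SE 0.139; edgeR adjusted p = 1.12e-09).

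**Figure D3:**
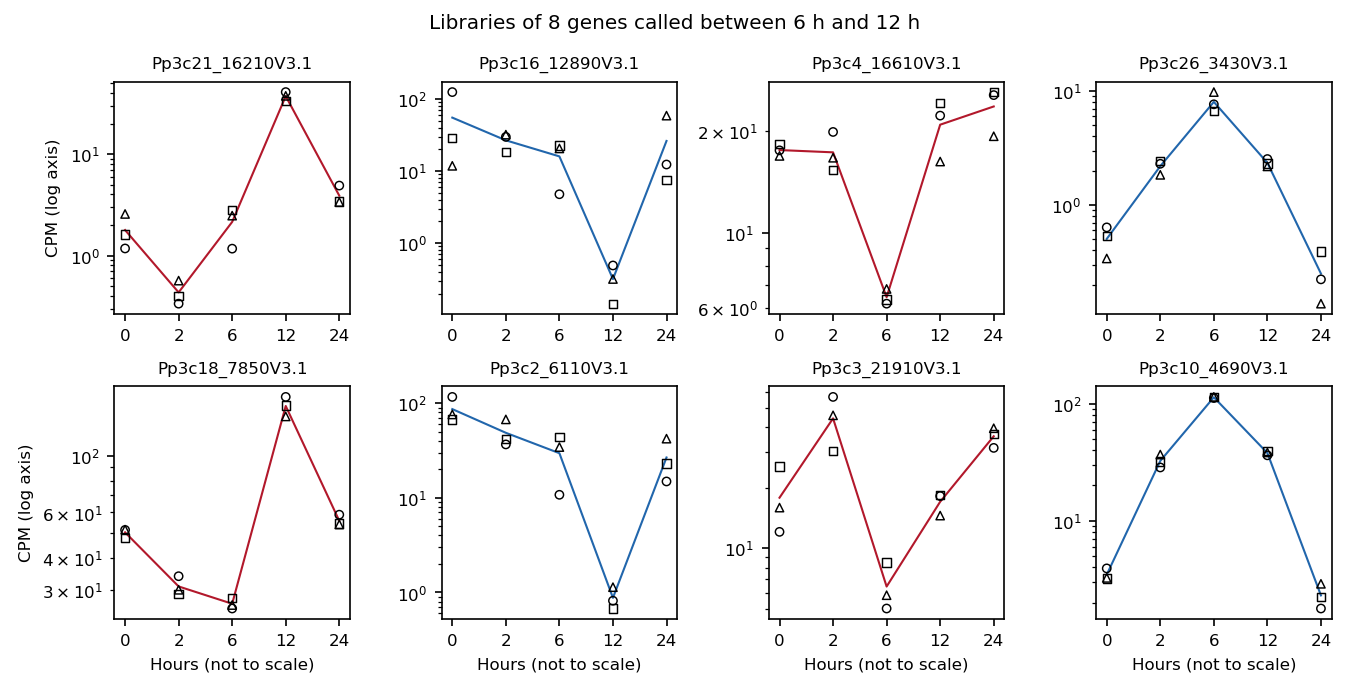
Level (CPM, log axes that differ between panels) of 8 genes called between 6 h and 12 h, by hours after decapitation; circles, squares and triangles are replicates 1, 2 and 3, and lines join the means. From left to right the columns hold the largest rises and the largest falls among genes that averaged 5 CPM or more, genes that turned upwards at 6 h and genes that turned downwards there, and Pp3c10_4690V3.1 has means of 3.46 CPM at 0 h, 113 CPM at 6 h and 2.30 CPM at 24 h.

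Other genes were picked because they were called in the same direction in both steps, so their kept direction follows from the choice. Pp3c20_2890V3.1 climbed, with 19.3, 23.7 and 21.5 CPM at 2 h, 68.9, 67.7 and 52.1 CPM at 6 h, and 140.3, 159 and 134 CPM at 12 h. The log2 changes were 1.55 ± 0.105 and then 1.20 ± 0.0957 (SE), and their difference was not called (-0.35, SE 0.170; edgeR adjusted p = 0.140). By 24 h the gene had dropped to 13.1, 13.6 and 14.5 CPM. Pp3c3_29560V3.1 went down, with 84.1, 78.4 and 107 CPM at 2 h, 11.9, 24.97 and 25.2 CPM at 6 h, and 2.98, 2.85 and 1.64 CPM at 12 h. Pp3c26_14540V3.1 fell from 35.8, 27.9 and 37.4 CPM to 5.69, 8.97 and 13.4 CPM and then to 1.96, 1.55 and 0.682 CPM. For these falling genes the step differences were -0.92 ± 0.577 and -0.87 ± 0.570 (log2, SE), and neither was called (edgeR adjusted p = 0.257 and 0.277).

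The genes of this step were then followed in comparisons that use none of its 6 libraries. Between 0 h and 24 h, 3769 genes (18.6%) were called higher and 3352 (16.5%) lower in edgeR. Of the 3408 genes higher at 12 h than at 6 h, 1875 (55.0%) were also higher at 24 h than at 0 h, whereas 95 had fallen. Those 1875 were 49.7% of the genes higher at 24 h. Of the 4293 genes that fell from 6 h to 12 h, 1762 (41.0%) were lower at 24 h than at 0 h, whereas 297 (6.92%) had risen, and the 1762 made up 52.6% of the genes lower at 24 h. Across all 20269 genes, the log2 changes of both comparisons had a Pearson correlation of 0.49 and a Spearman correlation of 0.47, a description across genes that share libraries and are not independent. The part of the stress tag of the 24 h label in these counts was not tested.

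Large changes went the same way. Among the 251 genes that rose at least 2-fold, 131 (52.2%) were higher at 24 h than at 0 h, which is 3.48% of that list, and 6 were lower. Among the 482 that fell at least 2-fold, 250 (51.9%) were lower at 24 h than at 0 h, which is 7.46% of that list, and 9 were higher.

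The first 2 h gave another picture. From 0 h to 2 h, 2494 genes (12.3%) were called higher and 2795 (13.8%) lower. Of the 3408 genes that rose from 6 h to 12 h, 1012 (29.7%) had fallen in the first 2 h and 194 (5.69%) had risen. The 1012 were 36.2% of all genes that fell by 2 h. Of the 4293 that fell from 6 h to 12 h, 1092 (25.4%) had risen in the first 2 h and 617 (14.4%) had fallen, and the 1092 were 43.8% of the genes that rose by 2 h. Among genes changed at least 2-fold, the 482 that fell showed no such excess, with 85 risen and 85 fallen by 2 h (17.6% each). Of the 251 that rose, 30 (11.95%) had fallen and 15 (5.98%) had risen, against 13.8% and 12.3% of all genes. Of those 251, 207 were in the lowest class by level, where small changes are hard to call.

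Neighbouring comparisons that share libraries with this step are given only side by side. For the 482 genes, the median log2 change was -0.23 from 0 h to 2 h, -0.26 from 2 h to 6 h, -1.63 from 6 h to 12 h and 1.46 from 12 h to 24 h. The 251 genes had medians of 0.01, -0.56, 1.19 and 0.00 over those steps. The last step shares the 12 h libraries, and the step from 2 h shares those of 6 h, so part of each opposite sign can come from the choice of the genes.

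Many of the genes that fell were genes that auxin raises. In the auxin experiment, which shares no library with the decapitation series, IAA raised 955 of 19989 genes at least 2-fold (4.78%) and lowered 277 (1.39%) in edgeR. Of these, 924 and 269 were also tested in the decapitation series. Of the 924 raised genes, 410 (44.4%) fell from 6 h to 12 h and 124 (13.4%) rose, against 21.4% and 17.0% of the 19766 genes tested in both experiments. Their median log2 change was -0.31, against -0.03 over all genes. A fall of this size was not particular to this step, as their median was -0.30 from 0 h to 2 h and -0.34 from 2 h to 6 h. From 12 h to 24 h it was 0.60. The list was known from earlier results on these data to lie low at 6 h and 12 h compared with 0 h.

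The stronger the response to IAA, the larger was the share that fell. Among 220 genes raised at least 4-fold by IAA, 159 (72.3%) fell and 7 rose, with a median of -1.23. Their medians were -0.49 from 0 h to 2 h and -0.55 from 2 h to 6 h. Of 704 genes raised 2- to 4-fold, 251 (35.7%) fell and 117 (16.6%) rose, with a median of -0.16. The 3302 genes raised less than 2-fold went the other way, with 890 (27.0%) that rose and 759 (23.0%) that fell and a median of 0.02. For the 11880 genes not called in IAA the shares were 16.8% and 16.6%. The classes were not matched for level, and the share of genes called rises with level.

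**Figure D4:**
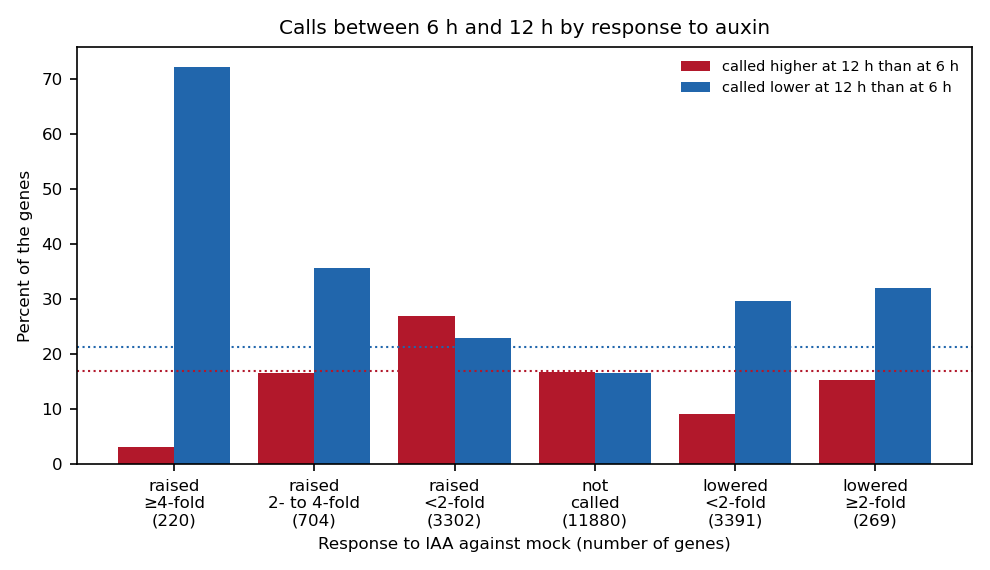
Percent of genes called higher (red) or lower (blue) at 12 h than at 6 h, in classes by their response to 30 min of IAA, with the number of genes under each class; dotted lines are the shares over all 19766 genes tested in both experiments (17.0% and 21.4%). The share that fell is 72.3% in the class raised most and 16.6% in the class not called, and the classes were not matched for level.

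Genes lowered by IAA also fell more often than they rose. Of the 269 lowered at least 2-fold, 86 (32.0%) fell from 6 h to 12 h and 41 (15.2%) rose, with a median of -0.13. Without replicate 3 of 6 h, 27 of the lowered genes rose, and their median was -0.22 without replicate 2 and -0.0738 without replicate 1 of mock. Of the 3391 lowered less than 2-fold, 1010 (29.8%) fell and 310 (9.14%) rose. Over all genes the log2 changes by IAA and from 6 h to 12 h had a Pearson correlation of -0.22 and a Spearman correlation of 0.05, so that their sign differed.

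**Figure D5:**
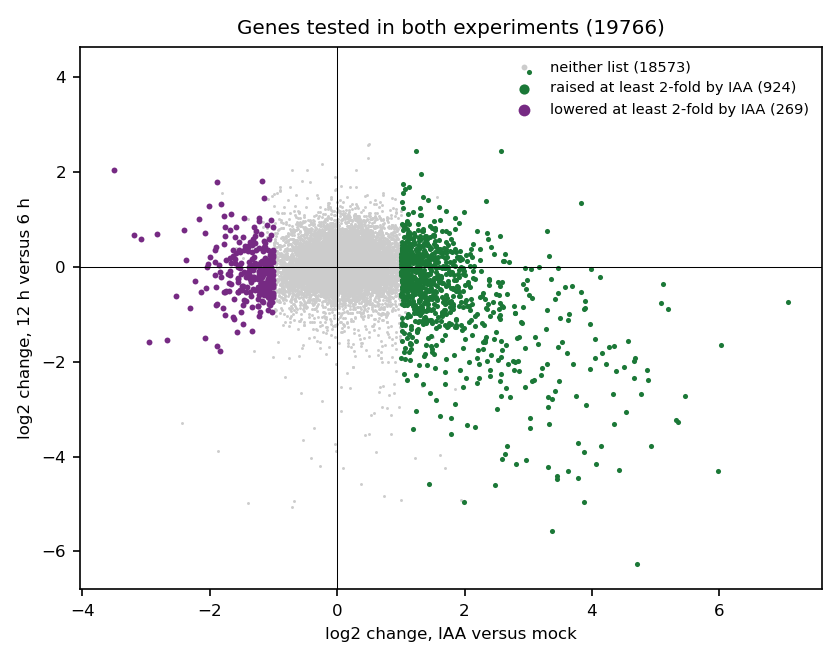
Each point is a gene tested in both experiments (19766), with its log2 change in IAA against mock on the x axis and its log2 change from 6 h to 12 h on the y axis. Genes raised at least 2-fold by IAA (green, 924) spread downwards to below -6, whereas those lowered at least 2-fold (purple, 269) lie on both sides of 0.

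Viewed from the step itself, 217 of the 429 genes that fell at least 2-fold and were tested in both experiments (50.6%) were raised at least 2-fold by IAA, a list that holds 4.67% of all genes tested. They were 23.5% of that list. Among the genes that fell at least 4-fold the number was 92 of 138 (66.7%). Of the 213 genes that rose at least 2-fold, 20 (9.39%) were in the list. The list lowered at least 2-fold by IAA holds 1.36% of all genes tested. It held 9 of the 213 genes that rose (4.23%), 12 of the 429 that fell (2.80%) and 0 of the 138. Without replicate 1 of 6 h, the number of genes both raised by IAA and lower at 12 h was 239. In the auxin libraries the 138 genes summed to 3912, 5402 and 4001 CPM under IAA and to 1878, 887 and 1683 CPM in mock, with CPM normalized separately from the decapitation series. The IAA libraries were all above those of mock, which follows in part from the 92 genes called raised in these same libraries.

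As a sum, the 924 raised genes changed little for their number. They held 26440, 28904 and 31525.5 CPM at 6 h and 24476, 25226 and 23970 CPM at 12 h. The groups did not overlap, and replicate 1 of 6 h was again the lowest of its group. The 269 lowered genes held 14928.5, 15430 and 14594 CPM at 6 h and 12161, 12139 and 11987 CPM at 12 h, also without overlap.

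Pp3c23_14420V3.1 and Pp3c16_12890V3.1 had the largest falls among genes raised at least 2-fold by IAA that averaged 5 CPM or more over the 6 libraries. Pp3c23_14420V3.1 stood at 1.64 CPM ± 0.990 in mock and 24.02 CPM ± 13.9 in IAA (SD, n = 3 each), a log2 change of 3.87 (SE 0.499; edgeR adjusted p = 0.000352). In the cut stems the 6 h libraries held 7.22, 47.9 and 49.3 CPM and the 12 h libraries 1.27, 0.822 and 1.23 CPM, and 38.8, 39.0 and 124 CPM were found at 24 h. Replicate 1 of 6 h lay between the others and the 12 h libraries, and the log2 change was -4.95 (SE 0.972; edgeR adjusted p = 0.000996). Pp3c16_12890V3.1, described above, was at 0.235 CPM ± 0.182 in mock and 2.46 CPM ± 1.99 in IAA.

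The rises among IAA-raised genes were fewer but as clear in the replicates. Besides Pp3c21_16210V3.1, at 0.614 CPM ± 0.315 in mock and 4.95 CPM ± 1.30 in IAA (SD, n = 3 each), they included Pp3c3_37540V3.1. That gene rose 5.46-fold, with 5.61, 5.86 and 6.34 CPM in the 6 h libraries and 35.1, 33.9 and 28.3 CPM in those of 12 h (log2 change 2.45, SE 0.131; edgeR adjusted p = 1.16e-08). All 12 h libraries lay below the 41.3, 48.9 and 42.7 CPM of 0 h (log2 change -0.45, SE 0.110; edgeR adjusted p = 0.00326). IAA took it from 5.70 CPM ± 1.28 to 34.1 CPM ± 3.31 (SD, n = 3 each).

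Genes lowered by IAA were found on both sides of the step. Pp3c24_20750V3.1, at 9.01 CPM ± 3.24 in mock and 2.21 CPM ± 0.847 in IAA (SD, n = 3 each), rose from 9.20, 10.4 and 10.5 CPM to 23.8, 21.1 and 28.1 CPM (log2 change 1.28, SE 0.103; edgeR adjusted p = 3.41e-07). Pp3c24_16590V3.1 rose from 3.23, 3.65 and 3.35 CPM to 7.60, 6.53 and 6.82 CPM. The peaked genes Pp3c17_13940V3.1 and Pp3c10_4690V3.1 fell most among genes of this class that averaged 5 CPM or more. IAA lowered Pp3c17_13940V3.1 from 469.6 CPM ± 41.2 to 127 CPM ± 14.7 and Pp3c10_4690V3.1 from 24.02 CPM ± 3.55 to 3.07 CPM ± 0.691 (SD, n = 3 each).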

How the data were processed

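Polyadenylated RNA was measured in 21 libraries. The authors deposited whole-number counts per gene model with no normalization. The submitters' processing notes name Bowtie2 without a version. The build and annotation used are not given in the sources used here. Per the file headers, only pairs with both mates on the same model and on opposite strands were counted, and reads with several equally good placements had been discarded, so near-identical genes are undercounted. No source used here says whether strand entered the counting, so overlapping antisense genes may share reads.

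The deposited count of read pairs was tested in R 4.3.3 with edgeR 4.0.16 (filterByExpr, TMM, glmQLFit, glmQLFTest, group as the sole term). The 15 libraries of the decapitation series shared 1 estimate of the spread (10 residual degrees of freedom, common biological coefficient of variation 0.0796), and the 6 of the auxin experiment another (0.0927). A gene was called at a Benjamini-Hochberg adjusted p below 0.05 over all genes tested, 20269 and 19989 in number. SE is the absolute log2 change over the root of its F value. CPM were scaled by TMM, with a prior count of 2 on the log2 scale. The procedure was also run on simulated counts in which no replicate stood apart, and no result here rests on that run.

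Replicates differed by more than sampling noise, with a chi-square per degree of freedom of 3.36 to 9.55 within 6 h and within 12 h, so none was a copy. Intervals from counting would cover counting error only, and the floor of 3 pairs does so too.

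Genes were named by rule, at most 2 per direction in each class, among genes that were called, averaged 5 CPM or more over the 6 libraries and had no overlap between both times. The classes were the largest changes, the most pairs among 2-fold changes, genes not changed earlier, genes that turned, genes that continued, and genes raised or lowered at least 2-fold by IAA. The members, lists and tests were chosen with earlier results of these data known. Planned lists of auxin signalling, wound, cell cycle and clock genes could not be filled, since no identifier matched the RefSeq table of assembly ASM5946719v1 (27567 genes). Alternatives were RLE size factors, other filters, DESeq2 1.42.0, a block for the replicate number, other sets of libraries in the fit, the deposited count of single reads, other fold thresholds and leaving out each library. For the counts at 4-fold and the overlaps between comparisons, the alternatives were chosen after seeing the data.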

Additional observations from a re-analysis of the deposited data

How the results depend on the processing

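All alternatives that were planned were run. The 23 named genes kept their direction and their call in all 322 values under other settings. They had been picked from the same libraries for clear calls without overlap, which favours this, so it does not speak for the other called genes. The median log2 change of all genes moved by less than 0.1 in each setting. With RLE size factors 3618 genes were higher and 3871 lower at 12 h, with DESeq2 3296 and 3556, with the 6 libraries of both times alone 3341 and 3233, and with all 21 libraries 3592 and 3393, against 3408 and 4293, so that the excess of falling genes depends on the fit. At 2-fold or more, genes that fell outnumbered those that rose under every setting run, whereas at 1.5-fold 1031 were higher and 1020 lower. Genes at least 4-fold higher numbered 46 with no filter on low counts, 12 with 1 CPM in 3 libraries and 12 with the compared groups alone, so this count of 19 is set by thinly counted genes.

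With no fold threshold on the auxin lists, 1014 raised genes rose and 1169 fell (median -0.0159), and 351 lowered genes rose and 1096 fell (median -0.0927). The median of the lowered list was -0.195 with the 1 CPM filter and -0.0662 with all 21 libraries.

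Leaving out each library in turn gave 2802 to 3182 genes higher and 3509 to 3907 lower, 195 to 332 and 418 to 511 at 2-fold, and 14 to 27 and 131 to 199 at 4-fold. The difference of the steps also uses the 2 h libraries. It was positive in 1727 to 2359 genes called and negative in 2082 to 2873. Of the IAA-raised list 113 to 142 rose and 341 to 427 fell (median -0.36 to -0.28), and of the IAA-lowered list 27 to 52 rose and 75 to 103 fell (median -0.223 to -0.0738).

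Same-numbered libraries of 6 h and 12 h did not deviate together (correlations of -0.01, -0.14 and 0.07), and those of other numbers ran from -0.16 to 0.20. No pairing by number was seen, but so few values cannot exclude it. With the replicate block, 3459 genes were higher and 4455 lower. Depth limits calls among genes of few pairs, where only large changes could be called.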

Other observations

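Genes that fell at least 2-fold were also looked at in the order of the identifiers. The next tested identifier also fell at least 2-fold in 31 of 481 cases (6.44%), against 2.38% of all genes tested. For genes that rose at least 2-fold the number was 6 of 251 (2.39%), against 1.24%. The longest runs, picked after their values were seen, were of 4 genes each. From Pp3c10_4420V3.1 to Pp3c10_4690V3.1 the log2 changes lay between -1.58 and -1.03, and from Pp3c3_29520V3.1 to Pp3c3_29560V3.1 between -3.04 and -1.20. No coordinates were used, so distances between these genes were not measured.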
